A study of Mus musculus with 6 samples.

Results

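Granzymes, perforin, serglycin and serpins make up the granule system with which lymphocytes kill other cells. The group described here has 8 genes, taken by symbol from both tables of read counts, out of 26286 genes in all. They are the granzymes Gzma (Entrez 14938), Gzmb (Entrez 14939), Gzmk (Entrez 14945) and Gzmm (Entrez 16904), the pore protein gene Prf1 (Entrez 18646), the storage proteoglycan gene Srgn (Entrez 19073), and the serpins Serpinb9 (Entrez 20723) and Serpinb6b (Entrez 20708). Gzmm, Prf1 and Srgn lie on chromosome 10, Gzma, Gzmk, Serpinb9 and Serpinb6b on chromosome 13 and Gzmb on chromosome 14. All 8 were found in both tables, and none was at 0 in all 4 single-cell protocol libraries.

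The cells were mouse regulatory T cells (Treg), CD4+ T cells that restrain immune responses, of the C57BL/6 strain. Every animal carried a Blimp1/GFP reporter, in which green fluorescent protein marks activity of the gene of the repressor Blimp-1 (Prdm1), and the prefix BlimpHet in all 6 titles points to 1 reporter allele, so both populations share this genotype. Pooled spleens and lymph nodes were sorted for CD4+ CD25high cells, either GFP+ or GFP-, with 3 libraries of each population that the design text calls biologically independent. In both populations 1 library was made by poly(A) selection (GFP+ library 19, GFP- library 20, numbered as in the titles) and 2 by an amplification method named for single cells (GFP+ libraries 1 and 4, GFP- libraries 2 and 5), though each sample is a sorted population. No source used here gives the age or the number of the animals.

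Granzymes are serine proteases that cytotoxic cells keep in lysosome-like granules, bound to the proteoglycan serglycin. On release, perforin opens the membrane of the target cell and granzymes enter and cleave proteins there, while serpins such as Serpinb9 protect the killing cell from its own granzyme B. Mouse Treg are known to use granzyme B, with or without perforin, as one means of suppression.

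Library totals ranged from 15224051 to 28354321 counts, with the poly(A) libraries the deepest. Levels are counts relative to library size (CPM), scaled by edgeR's TMM factors, which were 2.06 and 2.02 in the poly(A) libraries (GFP+ and GFP-) and between 0.519 and 0.846 in the others, so levels are compared within a protocol. Prdm1, the gene of the reporter, stood at 152, 44.3 and 29.5 CPM in GFP+ libraries 19, 1 and 4, against 9.13, 2.46 and 2.66 CPM in GFP- libraries 20, 2 and 5. Its level was thus higher in each GFP+ library than in the GFP- libraries of the same protocol. Foxp3, the factor that defines Treg, was between 1233 and 2624 CPM in GFP+ libraries and between 1097 and 2210 CPM in GFP- libraries, and Cd4 exceeded 312 CPM in every library. Il2ra, the gene of CD25, was lower in each GFP+ library than in the GFP- libraries of the same protocol. It had 216, 127 and 109 CPM in GFP+ libraries 19, 1 and 4. GFP- libraries 20, 2 and 5 had 360, 175 and 180 CPM. Its log2 fold change of -0.64 ± 0.23 (SE, n = 3 per population, edgeR adjusted p = 0.111) did not pass. DESeq2 called Il2ra lower (-0.68, DESeq2 adjusted p = 0.0161). Of 6 tested Treg markers from a list of 8, edgeR called only Ctla4 higher and none lower. Ctla4 had a log2 fold change of 2.09 ± 0.32 (SE, n = 3 per population, edgeR adjusted p = 0.00305). Ikzf2 (0.60 ± 0.23) and Tnfrsf18 (0.93 ± 0.43) did not pass. Macrophage markers differed far more. All 10 tested genes of a list of 11 were called higher in GFP+ cells, with a median log2 fold change of 6.14. Over all tested genes 9.81% were called higher. Among the markers, Cd14 met the filter on low counts through GFP+ libraries only, where it is high, so its call adds no support. The summed level of the list was 785 to 1773 CPM in GFP+ libraries against 13.3 to 29.5 CPM in GFP- libraries. The part of the macrophage RNA in any result below was not tested.

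The GFP+ libraries held far more RNA of the granzymes Gzmb and Gzma, while no rise was called for Prf1, Serpinb9 or Serpinb6b. Of the 8 genes, 2 were higher and none was lower at an adjusted p of 0.05 (edgeR quasi-likelihood test over 10523 genes, protocol as covariate, Benjamini-Hochberg adjustment). The 2 were Gzmb and Gzma. Gzma met the filter on low counts through GFP+ libraries only, where it is high, so its call adds no support. Among all tested genes 13.5% were called in either direction, 9.81% higher and 3.68% lower. At an unadjusted p under 0.05, Serpinb9 and Serpinb6b were lower and Srgn higher as well, and DESeq2 called Serpinb9 lower. Over the other settings tried, 1 to 3 of the genes were called higher and 0 to 2 lower. The median log2 fold change was 0.42 over the 8 genes and -0.08 over all tested genes. In bulk samples, fewer cells with a transcript and less RNA per cell cannot be told apart.

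**Figure D1:**
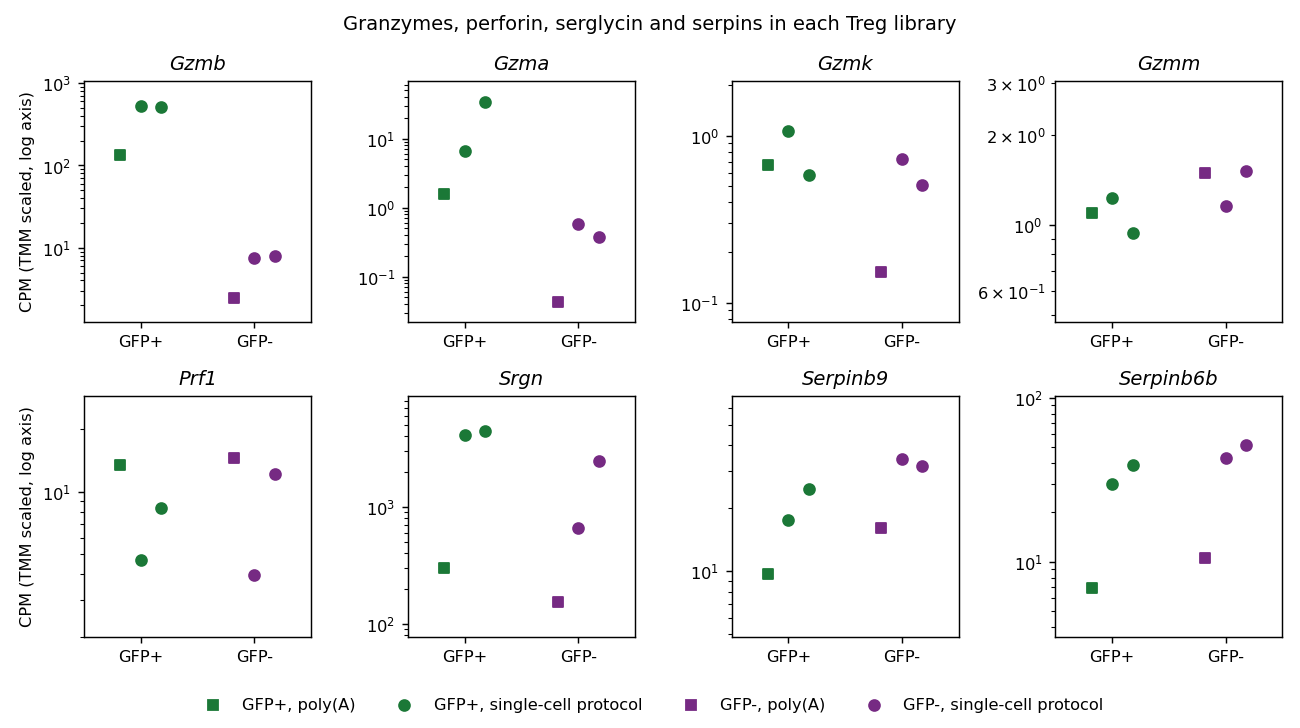
Level of each of the 8 genes in each library, in CPM scaled by TMM on a log axis, for GFP+ (left, green) and GFP- (right, purple) Treg, with squares for poly(A) and circles for single-cell protocol libraries. Gzmb and Gzma lie higher in every GFP+ library than in any GFP- library, whereas the levels of Prf1 and Gzmm overlap.

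The promoters of 3 genes are shown because these genes went different ways: Gzmb, far higher in GFP+ cells, Prf1, without a called change, and Serpinb9, lower without passing the threshold. Each runs 5′ to 3′ from 250 bases before to 50 bases after the gene's start, from RefSeq on build GRCm38.p6, with matches to the motifs below in capitals. Gzmb lies at chr14:56262285-56262584 on the minus strand, Prf1 at chr10:61297586-61297885 on the plus strand and Serpinb9 at chr13:33004291-33004590 on the plus strand.
Gzmb: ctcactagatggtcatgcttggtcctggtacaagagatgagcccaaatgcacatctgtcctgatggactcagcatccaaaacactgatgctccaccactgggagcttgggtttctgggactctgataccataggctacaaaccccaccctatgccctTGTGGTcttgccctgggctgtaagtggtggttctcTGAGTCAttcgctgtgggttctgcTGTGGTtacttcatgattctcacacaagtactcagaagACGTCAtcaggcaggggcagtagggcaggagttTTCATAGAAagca
Prf1: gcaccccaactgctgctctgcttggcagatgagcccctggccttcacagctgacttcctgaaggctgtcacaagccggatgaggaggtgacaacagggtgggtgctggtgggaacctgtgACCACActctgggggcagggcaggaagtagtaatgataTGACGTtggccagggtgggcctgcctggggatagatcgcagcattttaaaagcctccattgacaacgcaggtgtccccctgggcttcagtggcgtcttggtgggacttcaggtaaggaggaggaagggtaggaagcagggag
Serpinb9: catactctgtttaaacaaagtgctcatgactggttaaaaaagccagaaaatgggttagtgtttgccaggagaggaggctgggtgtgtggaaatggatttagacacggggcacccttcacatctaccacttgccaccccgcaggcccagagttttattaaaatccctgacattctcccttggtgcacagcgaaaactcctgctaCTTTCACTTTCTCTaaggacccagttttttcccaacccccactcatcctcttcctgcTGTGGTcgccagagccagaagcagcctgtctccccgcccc

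Motifs of transcription factor families known from T cells were searched on both strands. They were TGANTCA for AP-1, which includes BATF, TGTGGT for Runx and TTCNNNGAA for STAT. GAAA repeated after any 2 bases stood for interferon regulatory factors such as IRF4, and AGNGAAAG for a core of the Blimp-1 motif. TGACGT is only a part of the cyclic AMP response element, and AGGTGTGA only a part of the T-box motif. Gzmb held 1 AP-1 match, 2 Runx matches, 1 match to the cyclic AMP part and 1 STAT match. Prf1 held 1 Runx match and 1 match to the cyclic AMP part. Serpinb9 held 1 Runx match, 1 interferon regulatory factor match and 2 Blimp-1 core matches, both overlapping the interferon regulatory factor match. Of 32851 RefSeq promoters of the same length, 7.81% held the AP-1 motif, 16.8% Runx and 3.44% the interferon regulatory factor motif. The Blimp-1 core was in 8.63%, the cyclic AMP part in 7.51%, STAT in 8.30% and the T-box part in 1.28%. The Gzmb window held the only AP-1 match among the promoters listed for the 8 genes, and a match is a description of letters, not a bound site.

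Gzmb, which cleaves after aspartate and can start apoptosis, showed the largest difference of the 8 genes. It stood at 133, 531 and 520 CPM in GFP+ libraries 19, 1 and 4, against 2.48, 7.46 and 7.85 CPM in GFP- libraries 20, 2 and 5, from 6491 to 7175 counts in GFP+ libraries and 62 to 114 counts in GFP- libraries. Every GFP+ library lay far above every GFP- library, in either protocol. This gave a fitted log2 fold change of 5.98 ± 0.29 (SE, 3 libraries per population, edgeR adjusted p = 2.34e-05), and it stayed between 5.89 and 6.10 with any 1 library left out. The summed macrophage markers stood at 785, 1383 and 1773 CPM in the same GFP+ libraries.

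Gzma, a tryptase-like granzyme that cleaves after basic residues, rose as well, but from very few reads. It had 77, 81 and 469 counts in GFP+ libraries 19, 1 and 4, against 2, 8 and 3 counts in GFP- libraries 20, 2 and 5. As levels these were 1.57, 6.63 and 34.0 CPM in GFP+ libraries, against 0.0435, 0.580 and 0.380 CPM in GFP- libraries. The populations did not overlap, but GFP+ library 4 stood well above GFP+ library 1 of the same protocol. Its fitted log2 fold change was 5.27 ± 0.72 (SE, 3 libraries each, edgeR adjusted p = 0.00175), and 4.13 ± 0.52 without GFP+ library 4 (edgeR adjusted p = 0.000577). Gzma met the filter on low counts through GFP+ libraries only, where it is high, so its call adds no support.

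Gzmk, another tryptase-like granzyme, was at the edge of detection. It had 33, 13 and 8 counts in GFP+ libraries 19, 1 and 4, against 7, 10 and 4 counts in GFP- libraries 20, 2 and 5. The poly(A) pair differed, while the single-cell protocol libraries of the populations overlapped. The log2 fold change of 1.04 ± 0.54 (SE, n = 3 per population) had an edgeR adjusted p = 0.259, and was 0.37 without GFP+ library 19 and 0.36 without GFP- library 20, the poly(A) libraries.

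Gzmm, which cleaves after methionine and leucine and is known best from natural killer cells, was low in both populations. It had 54, 15 and 13 counts in GFP+ libraries 19, 1 and 4, against 69, 16 and 12 counts in GFP- libraries 20, 2 and 5. The levels overlapped, with a log2 fold change of -0.35 ± 0.35 (SE, n = 3 per population, edgeR adjusted p = 0.561).

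**Figure D2:**
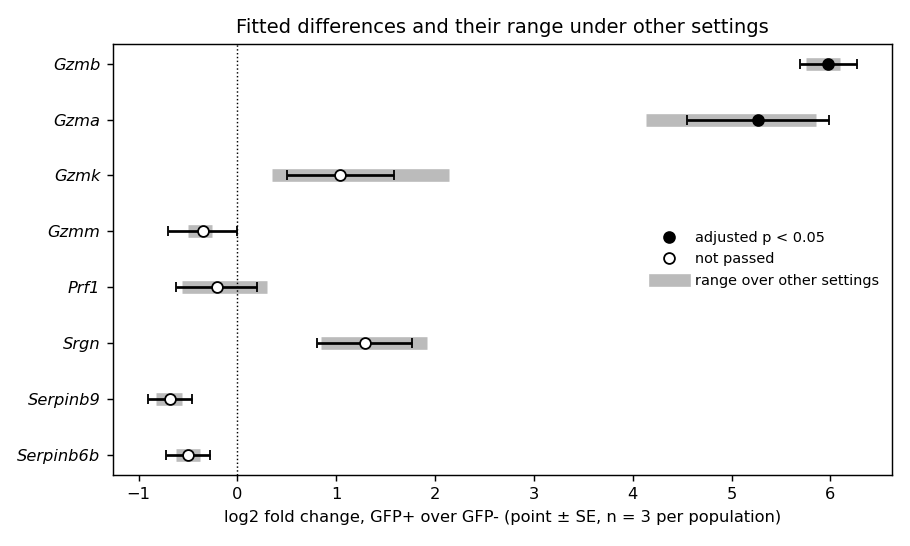
Fitted log2 fold change of each gene, GFP+ over GFP- (points, with SE as bars, n = 3 per population), filled where the edgeR adjusted p was under 0.05, over a grey band that spans the values under all other settings tried. Gzmb at 5.98 and Gzma at 5.27 stand apart from the other 6 genes, which lie between -0.68 and 1.29.

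The make-up of the granzyme RNA, a measure within each library that does not depend on scaling between libraries, shifted toward granzyme B. It comes from the same counts, so it restates the difference in Gzmb and is no separate support. Of all granzyme reads per kilobase of gene, over the 4 granzymes above and Gzmc to Gzmg and Gzmn, Gzmb had 91.7%, 93.0% and 86.1% in GFP+ libraries 19, 1 and 4, against 40.6%, 50.7% and 36.3% in GFP- libraries 20, 2 and 5. Which granzyme had the next share varied within each population. In GFP+ cells it was Gzmc in libraries 19 (3.89%) and 1, and Gzma in library 4 (9.09%). In GFP- cells Gzmc had 20.9% and 46.2% in libraries 2 and 5, where it was the largest share of library 5, and Gzmm had 27.1% in library 20. The GFP- shares rest on few reads, such as 52 counts of Gzmc in library 5.

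**Figure D3:**
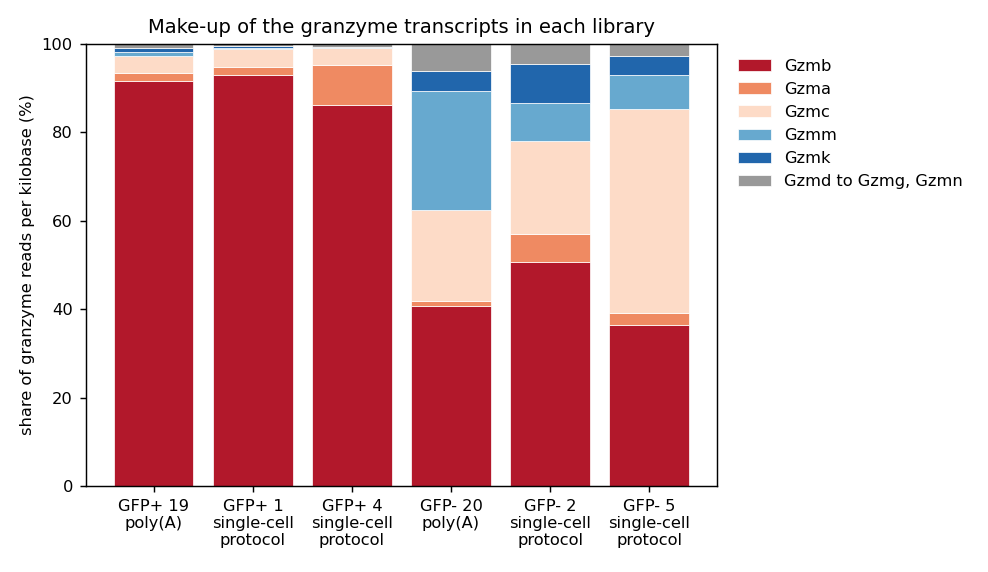
Share of each granzyme in all granzyme reads per kilobase of gene (percent, stacked to 100), by library, GFP+ at left and GFP- at right. Gzmb (red) takes 86.1% to 93.0% in GFP+ libraries and 36.3% to 50.7% in GFP- libraries.

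Gzmb lies at the end of a row of granzyme genes on chromosome 14, next to Gzmc in the RefSeq annotation, and 2 of the 6 other genes of that row were tested. Gzmc was called higher. It had 3.72, 15.1 and 15.4 CPM in GFP+ libraries 19, 1 and 4, against 0.826, 2.03 and 6.58 CPM in GFP- libraries 20, 2 and 5. Its log2 fold change was 1.97 ± 0.40 (SE, 3 libraries each, edgeR adjusted p = 0.0120), and the call was lost without GFP+ library 19 (edgeR adjusted p = 0.0501) or GFP+ library 1 (0.0670). Without GFP- library 5 the log2 fold change was 2.56. Gzmf, with 22, 13 and 17 counts in GFP+ libraries 19, 1 and 4 against 5, 2 and 0 counts in GFP- libraries 20, 2 and 5, met the filter through the GFP+ libraries alone, where it is high, so its call adds no support. Its edgeR adjusted p was 0.0189, and 0.0778, 0.0549 and 0.0692 without GFP+ library 1, GFP+ library 4 and GFP- library 2. Gzmd, Gzme, Gzmg and Gzmn had at most 14 counts in any library and were not tested. The genes of this row are similar in sequence, so reads may have been shared or lost between them.

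Prf1, the pore protein that lets granzymes into a target cell, showed no called change. Its level stood at 13.4, 4.66 and 8.34 CPM in GFP+ libraries 19, 1 and 4, against 14.4, 3.99 and 12.2 CPM in GFP- libraries 20, 2 and 5. The poly(A) pair had 659 counts in GFP+ and 664 counts in GFP- cells, and the single-cell protocol libraries overlapped. The fit gave a log2 fold change of -0.21 ± 0.41 (SE, n = 3 per population, edgeR adjusted p = 0.783), with its sign turned to 0.30 ± 0.33 without GFP- library 5 (edgeR adjusted p = 0.602). Per kilobase, the ratio of Gzmb to Prf1 reads was 14.4, 165 and 90.4 in GFP+ libraries 19, 1 and 4, against 0.249, 2.71 and 0.936 in GFP- libraries 20, 2 and 5. In each protocol the ratio was higher in every GFP+ library than in every GFP- library. The ratio uses the same Gzmb counts, so it restates the difference in Gzmb and is no separate support.

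Srgn, the proteoglycan core on which granzymes are stored and which many blood cells besides lymphocytes make, was the most abundant of the 8 per kilobase in every library. It had 299.6, 4115 and 4428 CPM in GFP+ libraries 19, 1 and 4, against 154, 661 and 2448 CPM in GFP- libraries 20, 2 and 5. GFP+ libraries lay above GFP- libraries within each protocol, but the 2 GFP- single-cell protocol libraries stood far apart from each other. The log2 fold change of 1.29 ± 0.48 (SE, n = 3 per population) did not pass (edgeR adjusted p = 0.124), and it passed at 0.85 ± 0.20 without GFP- library 2 (edgeR adjusted p = 0.0305) and at 1.92 ± 0.47 without GFP- library 5 (0.0149). Macrophage markers were higher in the same GFP+ libraries, with a median log2 fold change of 6.14, and macrophages also make serglycin. Their part in the level of Srgn was not tested.

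Serpinb9, the inhibitor of granzyme B, lay lower in GFP+ cells without passing the threshold. It was at 9.68, 17.6 and 24.6 CPM in GFP+ libraries 19, 1 and 4, against 16.1, 34.3 and 31.7 CPM in GFP- libraries 20, 2 and 5. Within each protocol every GFP+ value was under the GFP- values, but with library totals in place of TMM the single-cell protocol libraries overlapped. Its fitted log2 fold change was -0.68 ± 0.22 (SE, 3 libraries each, edgeR adjusted p = 0.0843), and DESeq2 called it with an adjusted p = 0.0332. Per kilobase, the ratio of Gzmb to Serpinb9 reads was 33.0, 63.9 and 44.8 in GFP+ libraries 19, 1 and 4, against 0.368, 0.461 and 0.525 in GFP- libraries 20, 2 and 5. Thus Serpinb9 reads outnumbered Gzmb reads per kilobase in every GFP- library and were outnumbered in every GFP+ library. This ratio too uses the counts given above and is no separate support.

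Serpinb6b, known in mice as an inhibitor of granzyme A, also lay lower without passing. It had 6.94, 29.9 and 39.1 CPM in GFP+ libraries 19, 1 and 4, against 10.5, 43.2 and 51.4 CPM in GFP- libraries 20, 2 and 5. GFP+ libraries lay below GFP- libraries of their protocol with TMM and overlapped with library totals. The fitted log2 fold change was -0.50 ± 0.22 (SE, 3 libraries each, edgeR adjusted p = 0.179). Further clade B serpin genes lie beside both on chromosome 13, and how reads shared with such copies were counted is not stated. In all, 3 of the 8 genes (Gzmb, Gzma and Srgn) were above and 2 (Serpinb9 and Serpinb6b) below in every within-protocol comparison, where 21.3% and 19.3% of all tested genes were.

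The order of the 8 genes per kilobase shifted between the populations. Levels here are CPM divided by gene length in kilobases (RPKM). Srgn came first in every library, at 319 to 4721 RPKM in GFP+ and 164 to 2609 in GFP- libraries. Gzmb came second in each GFP+ library (94.0, 374 and 367 RPKM in libraries 19, 1 and 4), and rank 5, 4 and 5 in GFP- libraries 20, 2 and 5 (1.75, 5.26 and 5.54 RPKM). Gzmm and Gzmk lay at the bottom in GFP+ cells, between 0.733 and 1.34, and their levels could not be ordered against each other. In GFP- libraries Gzma was the lowest of the 8, at 0.0495, 0.660 and 0.433. Where Prf1 stood relative to the serpins depended on the protocol: it led both in the poly(A) libraries and fell behind both in the single-cell protocol libraries of either population.

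Whether the population difference depended on the protocol was tested with an interaction term. None of the 8 genes passed, nor did any of 10523 tested genes (0% called with edgeR, and 24 genes at an unadjusted p under 0.05; DESeq2 called 0 and had 13). This test had 2 residual degrees of freedom and 1 poly(A) library per population. Its power was low, so the lack of calls does not show that the protocols gave the same difference. For Gzmb the difference between protocols was 0.35 ± 0.75 on the log2 scale (SE), and for Gzma it was 0.33 ± 3.18, so a large difference in Gzma between protocols could not have been detected.

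Genes that mature and store granule proteins were mostly higher in GFP+ cells. Of 7 tested genes of a list of 10, 4 rose and 1 fell, with a median log2 fold change of 1.00 (all tested genes -0.08). Of all tested genes 9.81% were called higher and 3.68% lower. Ctsc, the protease cathepsin C that activates granzymes, rose by 1.24 ± 0.28, the granule membrane protein gene Nkg7 by 1.22 ± 0.32, the lysosomal membrane gene Lamp2 by 1.07 ± 0.27 and M6pr, a sorting receptor for lysosomal enzymes, by 1.00 ± 0.25 (log2, SE, n = 3 per population, edgeR adjusted p between 0.0196 and 0.0367). Igf2r, the other mannose 6-phosphate receptor, fell by 1.75 ± 0.30 on the log2 scale (edgeR adjusted p = 0.00549), with 91.3, 13.3 and 24.3 CPM in GFP+ libraries 19, 1 and 4, against 226, 66.4 and 82.0 CPM in GFP- libraries 20, 2 and 5. Cst7, the cystatin that inhibits cathepsin C, had 0.61 ± 0.39 and did not pass. The number of rises was 0 without GFP+ library 19 or GFP- library 20, 1 without GFP+ library 1 or 4, 4 without GFP- library 2 and 5 without GFP- library 5, and Igf2r was called in each case. Macrophages are rich in lysosomes, and the part of the macrophage markers in these rises was not tested.

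Of 14 tested genes of the machinery that releases granules, from a list of 18, 2 rose and none fell (median log2 fold change 0.10), where 9.81% of all tested genes were called higher, so the count is near that background. Stx11, a SNARE protein needed for granule release, rose by 1.29 ± 0.22 and Sytl3, a Rab27 effector, by 1.75 ± 0.35 (log2, SE, n = 3 per population, edgeR adjusted p = 0.00501 and 0.0119). Stx11 lost its call without GFP+ library 19 (edgeR adjusted p = 0.0727) or GFP- library 20 (0.0821), and Sytl3 without GFP+ library 19 (0.0942), GFP+ library 1 (0.0627) or GFP- library 20 (0.0900). Unc13d, which primes granules for fusion, had 251, 54.9 and 60.6 CPM in GFP+ libraries 19, 1 and 4, against 224, 41.6 and 57.4 CPM in GFP- libraries 20, 2 and 5 (log2 fold change 0.21 ± 0.23). Rab27a, the GTPase that docks granules, lies on chromosome 9, of which all 1300 genes are at 0 in the single-cell protocol table, so those zeros say nothing of its expression. Its poly(A) pair had 105 CPM in GFP+ and 68.3 CPM in GFP- cells without a replicate check.

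Other clade B serpins, the family of Serpinb9 and Serpinb6b, included genes that rose. Of the list, 5 of 21 were tested, 2 rose and none fell, where 9.81% of all tested genes were called higher. Serpinb1a, an inhibitor of neutrophil proteases, rose by 1.41 ± 0.23 and Serpinb6a, a close relative of Serpinb6b, by 1.23 ± 0.26 (log2, SE, n = 3 per population, edgeR adjusted p = 0.00436 and 0.0148). Serpinb6a had 25.9, 182 and 114 CPM in GFP+ libraries 19, 1 and 4, against 13.6, 62.4 and 51.5 CPM in GFP- libraries 20, 2 and 5. The call of Serpinb1a was lost without GFP+ library 19 (edgeR adjusted p = 0.0544) or GFP- library 20 (0.0546), and that of Serpinb6a also without GFP+ library 1 (0.0677, 0.0702 and 0.0601 without GFP+ library 19, GFP- library 20 and GFP+ library 1). The median over the 5 was 1.15, and macrophage markers rose in the same libraries (part not tested).

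Of the tested death ligand genes only Lta was called, and it fell, as did the receptor gene Fas. Of 4 tested genes among death ligands and the receptor Fas, 2 fell and none rose, also with each library left out in turn. Over all tested genes 3.68% were called lower. Lta, the cytokine lymphotoxin alpha, fell by 2.12 ± 0.25 on the log2 scale, with 12.3, 12.3 and 16.4 CPM in GFP+ libraries 19, 1 and 4, against 40.0, 68.0 and 76.7 CPM in GFP- libraries 20, 2 and 5 (edgeR adjusted p = 0.000763). Fas fell by 1.27 ± 0.21 (edgeR adjusted p = 0.00403), and Fasl, its ligand, had -0.49 ± 0.39 and Tnf -0.44 ± 0.35, neither past the threshold.

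Of 12 tested proteins that granzymes are known to cleave, 2 rose and 1 fell, with a median log2 fold change of -0.16. Among all tested genes 9.81% were called higher and 3.68% lower, so these counts are near that background. Lmnb1, a nuclear lamina protein, rose by 1.91 ± 0.23, while Apex1, a DNA repair enzyme, fell by 0.81 ± 0.21 on the log2 scale (SE, n = 3 per population, edgeR adjusted p = 0.000825 and 0.0345). Apex1 lost its call without any library but GFP- library 2, with edgeR adjusted p up to 0.282.

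Transcription factors known to act on cytotoxic genes were higher for 5 of 10 tested, and none was lower. Their median log2 fold change was 0.72. The 5 include Prdm1, the gene of the reporter used for the sort. Its rise was fixed by the sort, so it adds no support to the count or the median. The share called higher over all tested genes was 9.81%. Id2 rose by 2.59 ± 0.50 (1.91 ± 0.37 without GFP+ library 4), Nfil3 by 1.80 ± 0.24, Runx3 by 1.40 ± 0.23 and Tbx21, the factor T-bet, by 1.28 ± 0.24 (log2, SE, n = 3 per population, edgeR adjusted p between 0.00162 and 0.00953). Tbx21 lost its call without GFP+ library 19 (edgeR adjusted p = 0.0638) or GFP- library 20 (0.0600), and Runx3 without GFP- library 20 (0.0550). Eomes, a relative of Tbx21, also lies on chromosome 9, with no usable value in the single-cell protocol table, and had 0.834 CPM in GFP+ and 8.34 CPM in GFP- cells of the poly(A) pair, without a replicate check.

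**Figure D4:**
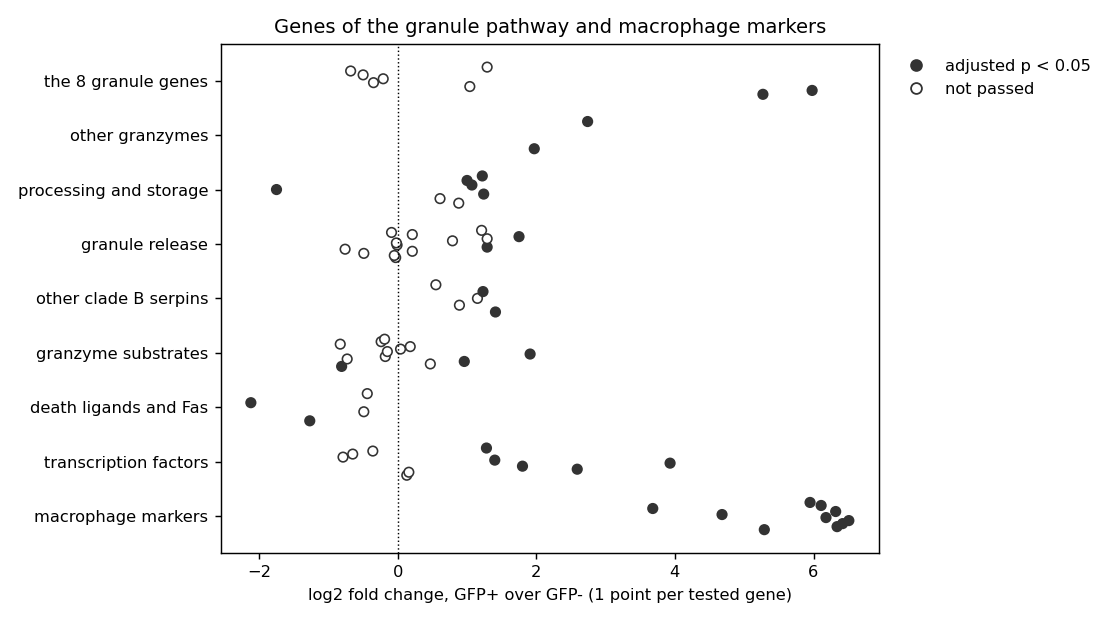
Log2 fold change, GFP+ over GFP-, of each tested gene of the granule lists and of the macrophage markers (1 point per gene, filled where the edgeR adjusted p was under 0.05). Gzmb and Gzma lie in the range of the macrophage markers (3.68 to 6.51), while release genes and substrates centre near 0.

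No rise was called for natural killer or CD8 T cell markers, and no mast cell or basophil marker could be tested. Of 8 natural killer cell markers 2 were tested: Ncr1 was lower, at 0.366, 0.327 and 1.09 CPM in GFP+ libraries 19, 1 and 4, against 1.00, 3.41 and 3.29 CPM in GFP- libraries 20, 2 and 5 (log2 fold change -1.92 ± 0.45, edgeR adjusted p = 0.0219). That call was lost without GFP+ library 19 (edgeR adjusted p = 0.0565), GFP+ library 1 (0.0712), GFP- library 20 (0.0629) or GFP- library 2 (0.0531). The other 6, such as Klra8 and Klre1, had 0 to 7 counts per library. Klrb1c had 0.10 ± 0.43, and the summed level of the 8 was 2.89 to 11.7 CPM in GFP+ and 3.65 to 9.64 CPM in GFP- libraries. Klrb1c was higher in GFP+ library 4 (9.72 CPM), the library with the most Gzma, than in GFP+ library 1 (2.70 CPM). The summed level of each other marker list but that of Treg was also higher in GFP+ library 4. Plasma cell markers, for example, summed to 223 CPM there against 106 CPM in GFP+ library 1. Of these sums, Jchain alone had 136 CPM in GFP+ library 4 and 8.75 CPM in GFP+ library 1. Any link of these levels to Gzma was not tested. The CD8 T cell genes Cd8a and Cd8b1 summed to 12.4 to 45.9 CPM in GFP+ and 16.5 to 68.9 CPM in GFP- libraries. Cd8a was lower (log2 fold change -0.99 ± 0.23, edgeR adjusted p = 0.0220), a call lost without GFP+ library 19 (0.214), 1 (0.107) or 4 (0.106) or GFP- library 20 (0.211). Mast cell and basophil markers were at or near 0 in all libraries, with at most 0.508 CPM in sum. Plasma cell markers were higher in sum in GFP+ libraries (106 to 223 CPM) than in GFP- libraries (40.1 to 56.7 CPM). Much of these sums was Irf4, at 82.9, 91.0 and 72.2 CPM in GFP+ libraries 19, 1 and 4. It had 49.3, 36.4 and 33.9 CPM in GFP- libraries 20, 2 and 5. Jchain did not pass (log2 fold change 3.03 ± 1.00, edgeR adjusted p = 0.0865). Of 5 tested plasma cell genes 2 were called higher, Sdc1 and Irf4, where 9.81% of all tested genes were, and Treg also make Irf4. Sdc1 kept its call without GFP- library 5 (log2 fold change 2.55, against 1.95 with all libraries) and lost it without any other library, with edgeR adjusted p between 0.0515 and 0.270, and Irf4 lost it without GFP+ library 19 (0.0827), GFP+ library 1 (0.0682) or GFP- library 20 (0.0888). Of 4 tested plasmacytoid dendritic cell markers, Runx2 rose (log2 fold change 2.01 ± 0.24, edgeR adjusted p = 0.000780) and Pacsin1 fell (-1.02 ± 0.22, 0.0144), a call that was lost without GFP- library 20 or any 1 GFP+ library (0.0585 to 0.155). No B cell marker passed.

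**Figure D5:**
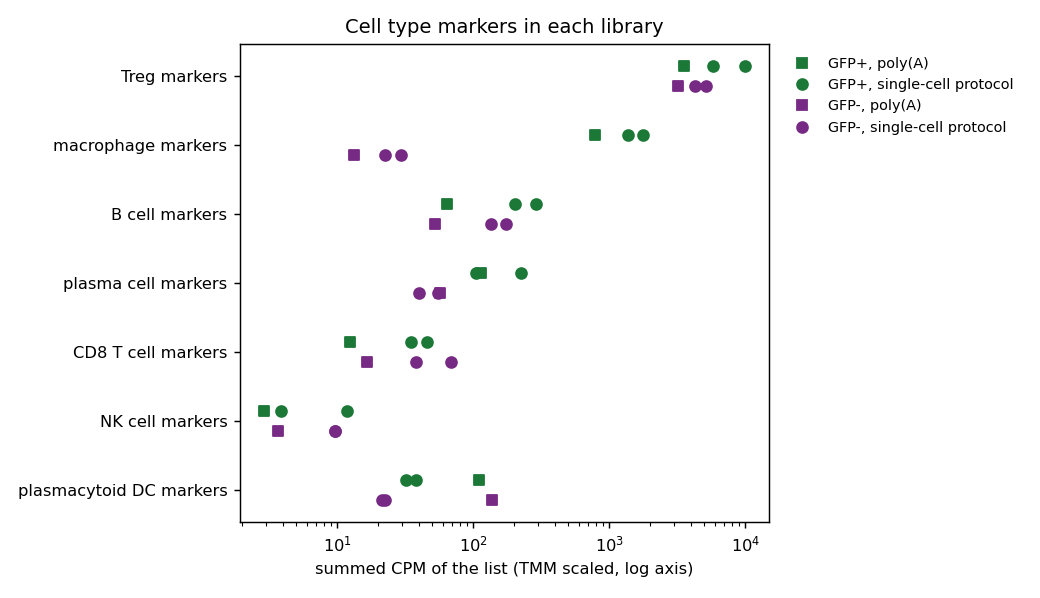
Summed CPM of each marker list (log axis) in each library, GFP+ (green, upper of each pair of rows) and GFP- (purple, lower), squares for poly(A) and circles for single-cell protocol libraries. Macrophage markers separate the populations (785 to 1773 CPM in GFP+ and 13.3 to 29.5 CPM in GFP- libraries), while natural killer and CD8 T cell markers overlap.

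Patterns most like those of the 8 genes were sought among 5945 genes of at least 10 CPM, by the root mean square distance of log2 levels centred within a protocol over the 6 libraries. The distance takes in the difference between the populations, so genes of a like fold change lie near by construction. For Gzmb the nearest were Slpi (distance 0.131), Treml4 (0.189) and Csf1r (0.211), with log2 fold changes of 6.19, 6.19 and 6.32. Of these, Csf1r, the receptor of the macrophage growth factor, is in the marker list. For Gzma they were Cfp (0.471), Plbd1 (0.517) and Fcgr4 (0.640), farther away, with log2 fold changes of 5.01, 4.70 and 5.83. For Srgn they were Crip1 (0.081), Cst3 (0.116) and Pglyrp1 (0.146), with log2 fold changes of 1.32, 1.42 and 1.47. For Prf1 they were Ndufa2 (0.048), Josd2 (0.060) and Nme3 (0.065), with log2 fold changes of -0.33, -0.18 and -0.34.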

How the data were processed

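RNA of sorted Treg was measured in 6 libraries, grouped by the population and protocol in the sample titles and labels. Per the file headers, the authors' tables hold whole-number read counts by Entrez ID beside gene lengths, with 1 table for each protocol. Subread, featureCounts, edgeR and build mm9 appear in the submitters' processing notes, and whether strand was used is not given in the sources used here. In the single-cell protocol table lengths stop at 3000 bases except for 1 gene, while 8113 genes are longer in the poly(A) table. All genes of chromosomes 8 and 9 and nearly all of chromosome 3 are at 0 in the single-cell protocol libraries, and for genes at 0 there only the poly(A) pair is given, without a test. The deposited log2 RPKM tables, so named per the file headers, served only as an alternative.

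Counts were analysed with edgeR 4.0.16, limma 3.58.1 and DESeq2 1.42.0 in R 4.3.3. filterByExpr (minimum count 10) with the population as group kept 10523 genes, library sizes were summed over these, and TMM factors were computed. The quasi-likelihood test had the protocol as covariate and 3 residual degrees of freedom, or 2 with the interaction. Standard errors come from the F statistic. CPM of all genes use the same scaling, and reads per kilobase use the lengths of each table. The p-values measure the spread between samples called biologically independent in the design text, and total counts of 15224051 to 28354321 per library set the precision at low levels. No 2 libraries agreed within sampling noise (chi-square at least 88.9 per degree of freedom). Unnamed genes held 0.604% to 4.53% of counts. The fit was tested on simulated data.

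The 8 genes and all lists were chosen with earlier results of these data known. The genes named are the 8, up to 5 tested genes of each list with the smallest p, those that complete a count of 5 or fewer, checks of the sort, and the 3 genes nearest in pattern. Cst7, Unc13d, Rab27a and Eomes fall outside this rule and were chosen after their values were seen. A gene that completes a count is not reported here. Alternatives were other scalings, filters, tests and covariates, and leaving out libraries.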

Additional observations from a re-analysis of the deposited data

How the results depend on the processing

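Gzmb kept its direction under all 18 alternatives, with log2 fold changes between 5.75 and 6.10, and its call under the 17 with a test (the poly(A) pair has none). Gzma did likewise except in the fit without the protocol covariate (5.50, adjusted p = 0.205), under which 1 of the 8 genes was called, along with 115 higher and 24 lower genes in all. Srgn passed with no filter on low counts (1.30), with a block of consecutive title numbers (1.47), with the deposited log2 RPKM values (1.78) and with library totals without TMM (1.53, added after seeing the data), and it ranged from 0.85 to 1.92 with 1 library left out. Serpinb9 passed with DESeq2 (-0.71) and with the block (-0.69), and Serpinb6b with the block (-0.51), so DESeq2 called 1 and the block 2 of the 8 genes lower. The poly(A) pair alone gave 2.14 for Gzmk. Prf1 ranged from -0.56 to 0.30 with 1 library left out, reversed without GFP- replicate 5; the cause was not tested.

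Over all tested genes, 1032 were higher and 387 lower. With 1 library left out, 569 to 1359 were higher and 140 to 797 lower; the single-cell protocol libraries alone gave 567 and 144, no filter 1682 and 818, and the block 1658 and 1263. DESeq2 called 714 lower, which left 62.7% of its calls higher, as the deposited log2 RPKM values left 62.3% and the block 56.8%, against 72.7% with edgeR. The block joins title numbers that follow each other, and no label says that these pair samples. The populations share no replicate number. Depth limits Gzma, Gzmk and Gzmf most, which had 10 or fewer counts in each GFP- library.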
